A study of Mus musculus with 23 samples.

Results

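Mature neutrophils were the dissected bone marrow cells with high Retnlg and Mmp9 and few transcripts of the primary granule proteases. A cell was counted as a member when at least 50 of every 10000 of its transcripts came from Retnlg and Mmp9 together, fewer than 40 per 10000 came from Elane, Mpo and Prtn3 together, and its total was at least 500 transcripts. The rule found 127 members among 944 dissected cells of that depth, which was 13.5% (exact 95% binomial interval 11.3 to 15.8%). At a minimum of 1000 transcripts it found 85 of 707 cells, or 12.02% (9.72 to 14.7%). These intervals cover counting error only.

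The study took mouse bone marrow after gentle flushing, trimmed small groups of attached cells (here called clumps) from larger structures with needles, and separated each clump by hand so that it was known which cells had touched. It has 18 libraries of such micro-dissected bone marrow cells, of which 17 are in the table used here, and 5 of sorted hematopoietic stem cells (HSC; Lineage- Kit+ Sca1+ CD150+ CD48-), of which 4 are in that table. Transcripts were measured by CEL-seq, which captures the 3′ end of each messenger RNA with a barcode for the cell and a tag for the molecule. The labels leave strain, age, sex and genotype unnamed, and no treatment is given for either group. The labels name no animals, so the spread between libraries may be technical.

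Neutrophils are made in the bone marrow from promyelocytes, which fill their primary granules with proteases and myeloperoxidase. Myelocytes and metamyelocytes then make the secondary granule proteins, stop dividing, and become band and segmented cells that load gelatinase granules. The last of these cells carry the receptors for G-CSF, chemokines and formyl peptides, and are held in the marrow as a reserve that enters the blood on demand.

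Of the markers, Retnlg (chr16:48872621-48874496, plus strand, mm10) encodes a small secreted resistin-like protein of the myeloid line. Mmp9 (chr2:164940780-164955850, plus strand) encodes gelatinase B, the protease after which gelatinase granules are named, and Mmp8 (chr9:7558456-7568485, plus strand) encodes neutrophil collagenase. Csf3r (chr4:126024550-126044440, plus strand) encodes the receptor for G-CSF. All 4 are protein-coding genes of the GENCODE vM21 annotation. Retnlg and Mmp9 chose the members, so their levels are a description, while Mmp8 and Csf3r took no part in the choice.

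Retnlg was present in all 127 members, at 5.77, 203 and 759 per 10000 transcripts in the lowest, median and highest cell. Mmp9 was present in 115 members, at 0, 37.9 and 145 per 10000. Retnlg alone reached 50 per 10000 in 110 members and Mmp9 alone in 45, so most members were chosen on Retnlg. The 5 members nearest the limit had 50.5, 50.8, 51.4, 51.5 and 54.1 per 10000 of both genes together, and the 5 cells nearest below it had 47.44, 42.99, 42.08, 41.24 and 40.06. Only 14 cells fell between 40 and 60 per 10000, of which 9 were members.

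Mmp8 was present in 110 of the 127 members, at 0, 48.1 and 178 per 10000, and Csf3r in 74, at 0, 4.73 and 62.2 per 10000. At least 3 of the 4 markers were present in 111 members and all 4 in 65. Deeper cells show more genes, so shares were also taken after each cell was thinned to 500 tags, which left out 1 member. Mmp8 was then found in 76.2% of 126 members (exact 95% interval 67.8 to 83.3%) and Csf3r in 37.3% (28.9 to 46.4%). In dissected cells rich in globin and other erythroblast transcripts, a class that should lack both genes, the thinned shares were 2.40% for Mmp8 and 1.80% for Csf3r over 334 cells. The median depth was 1245 transcripts in members and 1385 in those erythroid cells. Without thinning the shares were 86.6% and 58.3% in members and 6.69% and 4.94% in the erythroid cells.

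**Figure D1:**
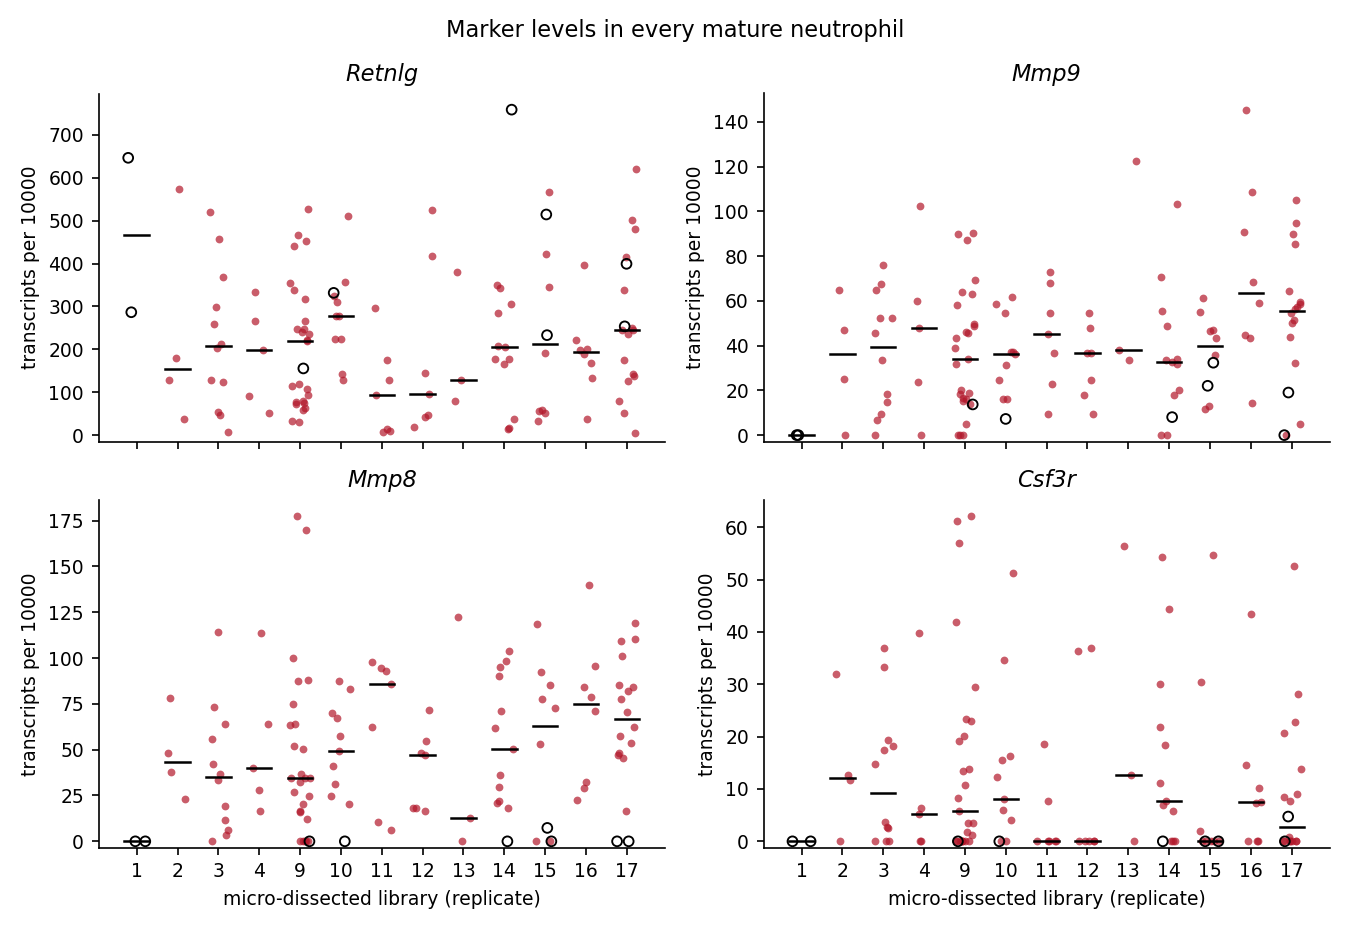
Transcripts per 10000 of the 4 marker genes (vertical axes) in each of the 127 mature neutrophils, by dissected library (horizontal axis); bars are medians of a library, and open circles are the 9 members with under 150 per 10000 of S100a8 and S100a9. Retnlg was above 0 in every member, while Mmp8 was above 0 in only 1 of the 9 open circles.

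The rule was also applied to the sorted HSC, which came from libraries of their own, so they do not measure transcripts carried over between dissected wells. None of 287 sorted cells with at least 500 transcripts passed it, which allows a share of up to 1.05%, and the highest of them had 4.85 per 10000 of Retnlg and Mmp9. Retnlg was seen in 3 sorted cells. In the dissected libraries it was seen in 14.6% of the 528 other cells, which met none of the class limits given below. The highest of these had 47.4 per 10000 of Retnlg and Mmp9. The limits do not show that all 528 lie outside the neutrophil line.

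Members came from 13 of the 17 dissected libraries. Their share of a library's cells was 11.6% ± 10.4 (SD, n = 17), with 0 in the lowest, 11.3% in the median and 40.3% in the highest. Replicates 5 to 8 held no member among 24, 17, 27 and 29 cells, where the exact intervals still reach 14.3, 19.5, 12.8 and 11.9%. Replicate 9 had the highest share, with 27 of 67 cells, followed by replicate 3 with 12 of 51 and replicate 17 with 18 of 86.

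The label was checked against genes the rule did not use, and 9 members from 6 libraries went against it. S100a8 and S100a9 encode the subunits of calprotectin, the most abundant protein of the neutrophil cytosol. In 118 members their sum was 251, 1785 and 3157 per 10000 in the lowest, median and highest cell. In the other 9 members it was 0 to 122 per 10000, although Retnlg was high in them, at 156, 332 and 759 per 10000. Mmp8 and Csf3r were each found in 1 of these 9 cells, against 109 and 73 of the 118.

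Of these 9 cells 7 had a transcript of Alox15, Ear1, Ear2, Prg2 or Epx. The 2 from replicate 1 had none of these 5 genes, but 23.8 and 19.9 per 10000 of the whole eosinophil list. That list was above 0 in all 9 cells, at 19.9, 57 and 674 per 10000 in the lowest, median and highest. It was above 0 in 55 of the 118, with a median of 0 and a highest value of 460. Ear1, an eosinophil-associated ribonuclease, was found in 6 of the 9 at up to 378 per 10000, and in 12 of the 118 at up to 16.8. Alox15, a lipoxygenase, was found in 6 of the 9 at up to 110 per 10000 and in 3 of the 118. The chemokine gene Ccl6 was found in all 9, at 9.13, 121 and 185 per 10000, and in 74 of the 118. Prg2, the eosinophil major basic protein, was found in 5 of the 9 at up to 65.5 per 10000 and in 41 of the 118 at up to 241. Epx, eosinophil peroxidase, was found in 1 of the 9 at 4.56 per 10000 and in 14 of the 118 at up to 102, so Prg2 and Epx did not set the 9 cells apart. The 9 cells were set apart after their values had been seen, so these are descriptions, and the cells are called members with low S100a8 and S100a9. Ear1 and Ear2 are near-identical copies, so their separate levels are uncertain.

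One member also stood apart by size. It was a cell of replicate 17 with 12673 transcripts, the most of any member, and its column name carries an extra word which the labels do not define. It was the only member over 100 per 10000 of the macrophage list, at 134, and of the monocyte and dendritic list, at 170.1, and had 55.7 per 10000 of Retnlg and Mmp9. Its erythroblast list level was 1082 per 10000.

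Markers of other cell types were also summed in members, and erythroblast genes were the highest of these lists. The erythroblast list holds globins, Alas2, Slc4a1 and others. By library, over the 12 libraries with at least 3 members, it came to 13.1, 81.7 and 1218 per 10000. The list came to 24.6, 49.6 and 558.9 in neutrophil-line cells with secondary granule transcripts, and to 1.99, 18.95 and 463 in promyelocytes. In the other dissected cells, which met none of the class limits, it came to 283, 798 and 1772. Above 100 per 10000 of that list were 37 of 127 members, 36 of 180 neutrophil-line cells with secondary granule transcripts and 15 of 104 promyelocytes. Of its 17 genes 16 were above 0 in members, and only the erythroid transcription factor gene Gata1 was at 0. The monocyte and dendritic list came to 16.3, 28.6 and 80.8 per 10000, against 17.9, 24.5 and 54.5 in neutrophil-line cells with secondary granule transcripts. The macrophage list came to 0, 5.23 and 53.1 per 10000 and the eosinophil list to 0.363, 16.4 and 73.5. Of 12 B and plasma cell genes 8 were at 0 in members, among them Ms4a1 and Pax5. Of 8 T and NK cell genes 4 were at 0, among them Cd3e. The gene comparisons below were repeated without the S100-low, the macrophage-high and the erythroblast-high members, each in turn. Only members were left out in these repeats, and the fit without a filter on low sums was not repeated in this way. Values that moved most are given beside the result, and the part of those transcripts was otherwise not tested.

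The 118 members with S100a8 and S100a9 differed among themselves in the secondary granule genes Ltf (lactoferrin), Camp (cathelicidin) and Ngp (neutrophilic granule protein). Their sum ran from 0 to 1413 per 10000 over the 127 members, with a median of 139. It was under 50 in 34 of the 118 cells, from 50 to 200 in 32 and at 200 or more in 52. The low cells came from 9 libraries, the middle from 11 and the high from 11, and the median depth was 1073, 1143 and 1653 transcripts. Secondary-granule genes took no part in the choice of members, but Retnlg and Mmp9 did, so all values within members are given without a test.

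Retnlg and Csf3r were lower in the members that still had most secondary granule transcripts, while Retnlg was highest in the middle group. Over the libraries with at least 2 such cells, Retnlg came to 103, 233 and 345 per 10000 in the low group, 223, 336 and 441 in the middle group and 55.6, 117 and 202 in the high group. Csf3r came to 6.38, 18.98 and 31.2 in the low group, 3.96, 18.2 and 29.4 in the middle group, and 0, 3.67 and 17.6 in the high group. The ranges of the low and the high group overlapped for both genes. Cxcr2, the chemokine receptor that draws neutrophils out of the marrow, had medians of 20.2, 21.3 and 6.38 per 10000 in the 3 groups. Srgn, the granule proteoglycan serglycin, was found in 28 of 34, 25 of 32 and 12 of 52 cells.

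Other genes ran the opposite way. Lcn2, the secondary granule protein neutrophil gelatinase-associated lipocalin, had a library range of 0 to 110 per 10000 in the low group and 146 to 336 in the high group, which did not overlap. Chi3l3, a chitinase-like protein, was found in 9 of 34, 15 of 32 and 45 of 52 cells. Cebpe, the transcription factor needed for secondary granule genes, was found in 3 of 34, 3 of 32 and 22 of 52 cells. Cd177, a surface protein of neutrophils, was found in 12, 18 and 39 cells. Mmp8 had library medians of 32.83, 57.04 and 59.84 per 10000, so it was as high in the high group, where Csf3r was low, as in the middle group, where Csf3r was not.

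As a description over 118 cells, which share libraries and a total of 10000 each, the Spearman correlation with the Ltf, Camp and Ngp sum was -0.46 for Retnlg, -0.46 for Csf3r, -0.41 for Cxcr2 and -0.59 for Srgn. It was 0.77 for Lcn2, 0.68 for Chi3l3 and 0.45 for Cd177. It was weaker for Mmp8, at 0.25, and Mmp9, at 0.19, and 0.26 for the number of transcripts itself.

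Il1b, the gene of the inflammatory cytokine interleukin-1β, was found in 22 of the 127 members. Of the 118 it was in 14 of 34 low, 4 of 32 middle and 4 of 52 high cells. No transcript of it was found in 180 dissected cells of the secondary-granule class described next, which allows a share of up to 1.67%, nor in 104 promyelocytes, which allows up to 2.89%. These limits are for cells with a captured transcript, not for cells that express the gene. Of the other 528 dissected cells 2.27% had one.

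**Figure D2:**
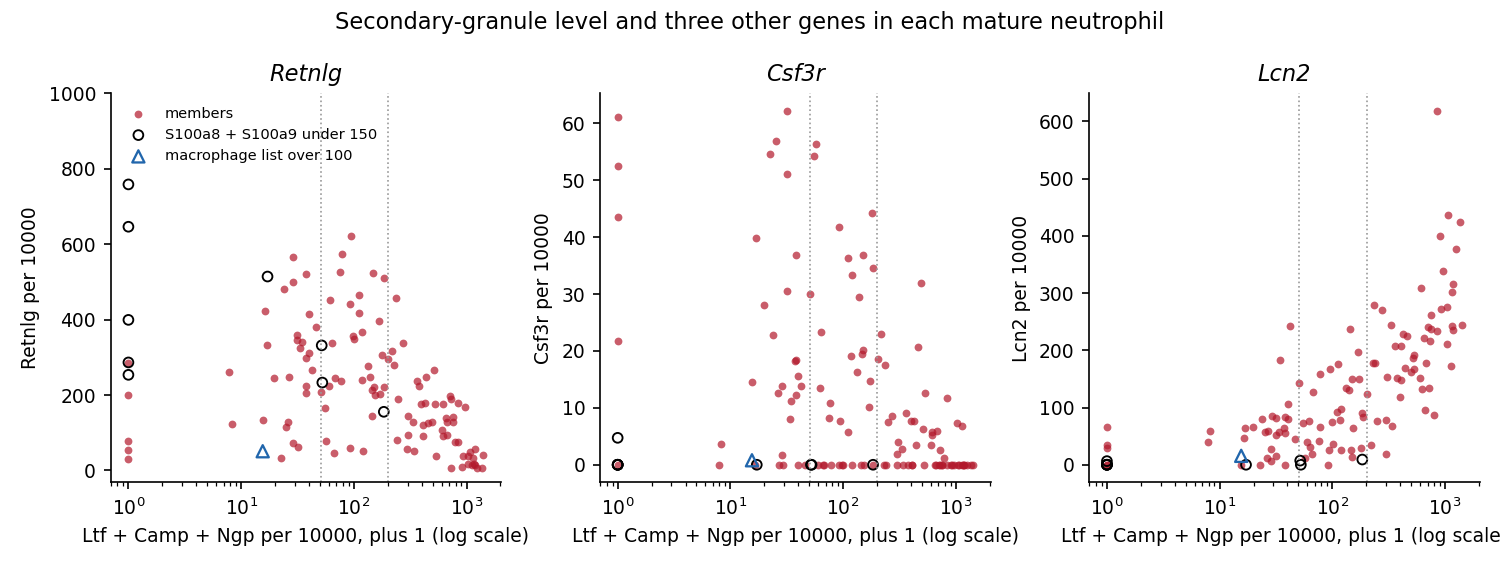
Levels of Retnlg, Csf3r and Lcn2 per 10000 transcripts (vertical axes) against the summed level of Ltf, Camp and Ngp plus 1 (horizontal axes, log scale) in the 127 members; open circles are the 9 members with low S100a8 and S100a9, the triangle is the member with 12673 transcripts, and dotted lines mark 50 and 200 per 10000. Retnlg is highest in the middle and lowest at the right (library medians 233, 336 and 117), Csf3r is alike at the left and in the middle and lower at the right (18.98, 18.2 and 3.67), and Lcn2 rises throughout (49.1, 107 and 219).

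Members were compared with 3 other classes of dissected cells of the same libraries, with at least 500 transcripts each. Secondary-granule cells (180 cells) had at least 200 per 10000 of Ltf, Camp and Ngp, too little Retnlg and Mmp9 for the rule and under 40 per 10000 of Elane, Mpo and Prtn3. Promyelocytes (104 cells) had at least 40 per 10000 of those 3 protease and peroxidase genes. Of the other 528 cells, 344 had at least 300 per 10000 of the erythroblast list. The 5 cells that met both limits were left out. Estimated transcripts were summed per class and library where it had at least 3 cells, which gave 12 sums of members with 2355 to 49956 transcripts. The sums were tested with edgeR's quasi-likelihood test with the library as a block and Benjamini-Hochberg adjustment over 538 genes. The 8 genes that define the classes were not tested. Genes that vary with them are not independent of the class limits either. All 3 comparisons use the same sums of members. Log2 fold changes are given with an approximate standard error.

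The genes of the class rules show how far the classes were apart. By library, Retnlg came to 98.6, 192 and 263 per 10000 in members (mean 191 ± 41.4, SD, n = 12) and to at most 4.70 in secondary-granule cells, 11.3 in promyelocytes and 3.30 in the other cells. Ngp was 29.8, 206 and 462 per 10000 in members and 233, 456 and 644 in secondary-granule cells, and Camp was 12.8, 115 and 172 against 129, 363 and 513. Members thus kept secondary granule transcripts, and 52 of them would have passed the limit of the secondary-granule class. Elane was at most 1.88 per 10000 in members and 28.1 to 121 in promyelocytes.

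Against secondary-granule cells, members had more transcripts of Mmp8, Csf3r, the receptor genes Cxcr2, Fpr2 and Selplg, and S100a6 and S100a11, and fewer of cell division genes and of a few secondary granule genes. Of 538 genes tested, 104 were higher in members and 110 lower at an adjusted p of 0.05, so that 39.8% were called, 19.3% as higher and 20.4% as lower. The split depends on the scaling: scaling by each sum's total instead of TMM factors left 83 higher and 154 lower, which made the higher share of calls 35.02% instead of 48.6%, and the median log2 difference of all tested genes moved from 0.00 to -0.17. Without the 37 members with over 100 per 10000 of the erythroblast list, 48 were higher and 216 lower. Cells of the other classes over that limit stayed in. Replicates 12 and 13 then had fewer than 3 members and gave no sum of members. With all members kept, counts were 56 higher and 177 lower without replicate 12, and 81 and 118 without replicate 13. How much of the shift came from the lost sums was not tested. Leaving out 1 library at a time gave 49 (without replicate 17) to 106 higher and 91 to 186 (without replicate 2) lower genes.

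Mmp8 was 36.3, 48.4 and 77.9 per 10000 in the lowest, median and highest library of members and 0, 1.28 and 10.52 in secondary-granule cells. The ranges did not overlap, and the log2 fold change was 4.66 ± 0.42 (adjusted p = 3.59e-11 by edgeR, higher in 12 of 12 libraries). Csf3r was 3.84, 9.13 and 25.6 per 10000 in members against 0, 1.53 and 6.11. Its lowest libraries overlapped the highest of the secondary-granule cells, and its log2 fold change was 2.41 ± 0.32 (adjusted p = 2.17e-08, 12 of 12).

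Of 7 tested surface receptor genes, 5 were higher in members and none lower, with a median log2 fold change of 2.06 against 0.00 for all genes. Cxcr2 was 3.28, 11.6 and 23.9 per 10000 against 0.440, 2.48 and 8.04, a log2 fold change of 2.39 ± 0.29 (adjusted p = 1.71e-09). Its thinned share of cells was 50.8% in members and 13.4% in secondary-granule cells, while 14.1% of erythroid cells and 14.98% of sorted HSC also had it. Fpr2, a formyl peptide receptor that senses bacterial products, was 8.52, 14.1 and 31.3 per 10000 against 0, 3.67 and 7.99, without overlap (log2 fold change 2.06 ± 0.32). Selplg, the selectin ligand used for rolling on vessel walls, was higher in 11 of 12 libraries, by 2.74 ± 0.32 on the log2 scale (adjusted p = 5.99e-10). The fifth gene was Itgam, the integrin subunit CD11b, at 0.69, which was called in only 3 of 27 alternative settings.

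Among 6 tested S100 and annexin genes 3 were higher. S100a6, a calcium-binding protein, was 19.6, 54.2 and 94.1 per 10000 in members and 0, 5.13 and 16.01 in secondary-granule cells. The ranges were apart, with a log2 fold change of 3.53 ± 0.37 (adjusted p = 5.25e-10). S100a11 differed by 1.74 and Anxa2, annexin A2, by 1.65, each higher in 12 of 12 libraries. S100a8, S100a9 and Anxa1 did not pass the test, with log2 values of 0.13, 0.24 and 0.06. S100a8 was 375, 818 and 1155 per 10000 in members and 434, 776 and 1136 in secondary-granule cells, so both classes were rich in calprotectin. The median of the list was 0.94, but -0.05 without the erythroblast-high members.

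Of 8 tested genes of gelatinase granules and late granulocytes only 3 were higher, with a median of 0.36. Without the erythroblast-high members 3 were still higher and the median was 0.10. Besides Mmp8 these were Slpi, an inhibitor of neutrophil elastase, at 5.87, 15.8 and 46.9 per 10000 against 0, 2.63 and 4.55 (log2 fold change 2.80 ± 0.43, adjusted p = 1.45e-06), and Mgst1, a microsomal glutathione transferase, at 1.28 ± 0.33. The call of Mgst1 was lost without replicate 10, at 0.79, and without the filter on low sums, at 0.64. Cd177, Hp (haptoglobin), Pglyrp1 (a peptidoglycan recognition protein) and Lrg1 did not pass the test, with values of -0.10, 0.16, 0.09 and 0.55.

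Other genes that differed in every library were Grina, Mxd1 and H2-D1. Grina, a membrane protein of the family of Bax inhibitors, was 5.87, 10.9 and 21.3 per 10000 against 0, 1.51 and 5.83 (log2 fold change 2.78 ± 0.29). Mxd1, a partner of Max that opposes Myc, was 7.39, 12.6 and 26.5 against 0, 3.08 and 9.88 (2.08 ± 0.28). The thinned share of cells with Mxd1 was 38.9% in members and 22.9% in secondary-granule cells, but also 23.65% in erythroid cells. It was 7.69% in promyelocytes. H2-D1, a class I antigen-presenting molecule, was 9.80, 18.3 and 25.6 against 2.91, 5.19 and 8.11 (1.91 ± 0.19, adjusted p = 1.27e-11). Slc2a3, a glucose transporter, differed by 2.19 ± 0.52 and Srgn by 2.68 ± 0.45. The thinned share of cells with Srgn was 34.9% in members and 6.1% in secondary-granule cells, but 60.6% in promyelocytes and 23.7% in sorted HSC. H2-D1 has close copies in the class I cluster, so its own level is uncertain.

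Iron storage and oxidative defence genes were higher in 9 of 15 tested cases and lower in none, with a median of 0.73. The ferritin subunits Fth1 and Ftl1 were higher by 2.33 ± 0.26 and 1.61 ± 0.18, in 12 of 12 libraries each, and Msrb1, a selenoprotein that repairs oxidised methionine, by 1.61 ± 0.27 in 9 of 12. Without the macrophage-high member 6 of these genes were higher, with a median of 0.40. Without the erythroblast-high members 5 were higher and 2 lower, with a median of 0.06, and Fth1 still differed by 1.55 and Ftl1 by 1.02. Of 29 actin cytoskeleton genes 9 were higher, led by Lsp1, a leukocyte actin-binding protein, at 1.76 ± 0.32. That count fell to 6 higher and 2 lower without the erythroblast-high members. Of 6 NADPH oxidase genes 2 were higher, among them Rac2 by 0.57, and 1 was lower, Cybb, the catalytic subunit, at -0.57. The call of Cybb was lost with DESeq2, at -0.54, and without replicate 16, at -0.58. Rac2 was called in only 9 of 27 alternative settings and was -0.10 without the filter on low sums.

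Cell division genes were the most uniform group. All 28 tested genes of DNA replication and mitosis, of 51 in the table, were lower in members, with a median log2 fold change of -1.75. All 28 were also lower with library totals, with DESeq2 and without each of the S100-low, macrophage-high and erythroblast-high members. Hmgn2, a nucleosome-binding protein, was 1.96, 5.25 and 12.8 per 10000 against 16.1, 27.2 and 60.2, and H2afz, a histone variant, 3.01, 6.65 and 11.7 against 15.99, 27.2 and 39.1. Neither gene overlapped between the classes, with log2 fold changes of -2.11 ± 0.20 and -1.88 ± 0.16 (adjusted p = 2.04e-12 and 2.71e-13 by edgeR). Stmn1, a tubulin-binding protein of dividing cells, was found in 6 of 127 members (-3.21 ± 0.35). Mki67 and Top2a were lower in 11 of 12 libraries, at -1.41 and -1.74.

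Secondary granule genes split. Secondary-granule cells were chosen for high Ltf, Camp and Ngp, so these differences are not independent of the class limits. Of 11 tested genes 4 were lower and none higher, with a median of -0.33. Without the erythroblast-high members 6 were lower, with a median of -0.79, and without the macrophage-high member 5, with a median of -0.51. Fcnb, ficolin B, was 0, 0.260 and 4.26 per 10000 against 2.42, 7.43 and 23.1 (log2 fold change -3.25 ± 0.48, adjusted p = 2.44e-07). Chi3l3 was 5.81, 21.7 and 56.7 against 12.1, 79.6 and 125.7 (-2.17 ± 0.34), and Serpinb1a, an intracellular inhibitor of neutrophil proteases, was lower in 12 of 12 libraries (-1.39 ± 0.25). Lcn2, Lyz2 (lysozyme) and Anxa1 did not pass the test, with -0.14, 0.32 and 0.06. Lcn2 was 21.3, 134 and 292 per 10000 in members and 112, 176 and 358 in secondary-granule cells. Cebpe was lower in 12 of 12 libraries (-1.36 ± 0.31), as was Ms4a3, a gene of granulocyte progenitors (-1.63 ± 0.50). Lta4h, which makes leukotriene B4, was lower in 11 of 12 (-1.69 ± 0.29).

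Of 72 ribosomal protein genes 24 were lower and 1 higher, with a median of -0.39. With library totals 46 were lower and none higher, without the erythroblast-high members 64 were lower, and without the macrophage-high member 42. Respiratory chain genes were called in 2 of 27 cases, 1 in each direction, but 6 of 28 were lower and none higher without the erythroblast-high members. Without those members the median of all genes tested was itself lower, at -0.47.

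**Figure D3:**
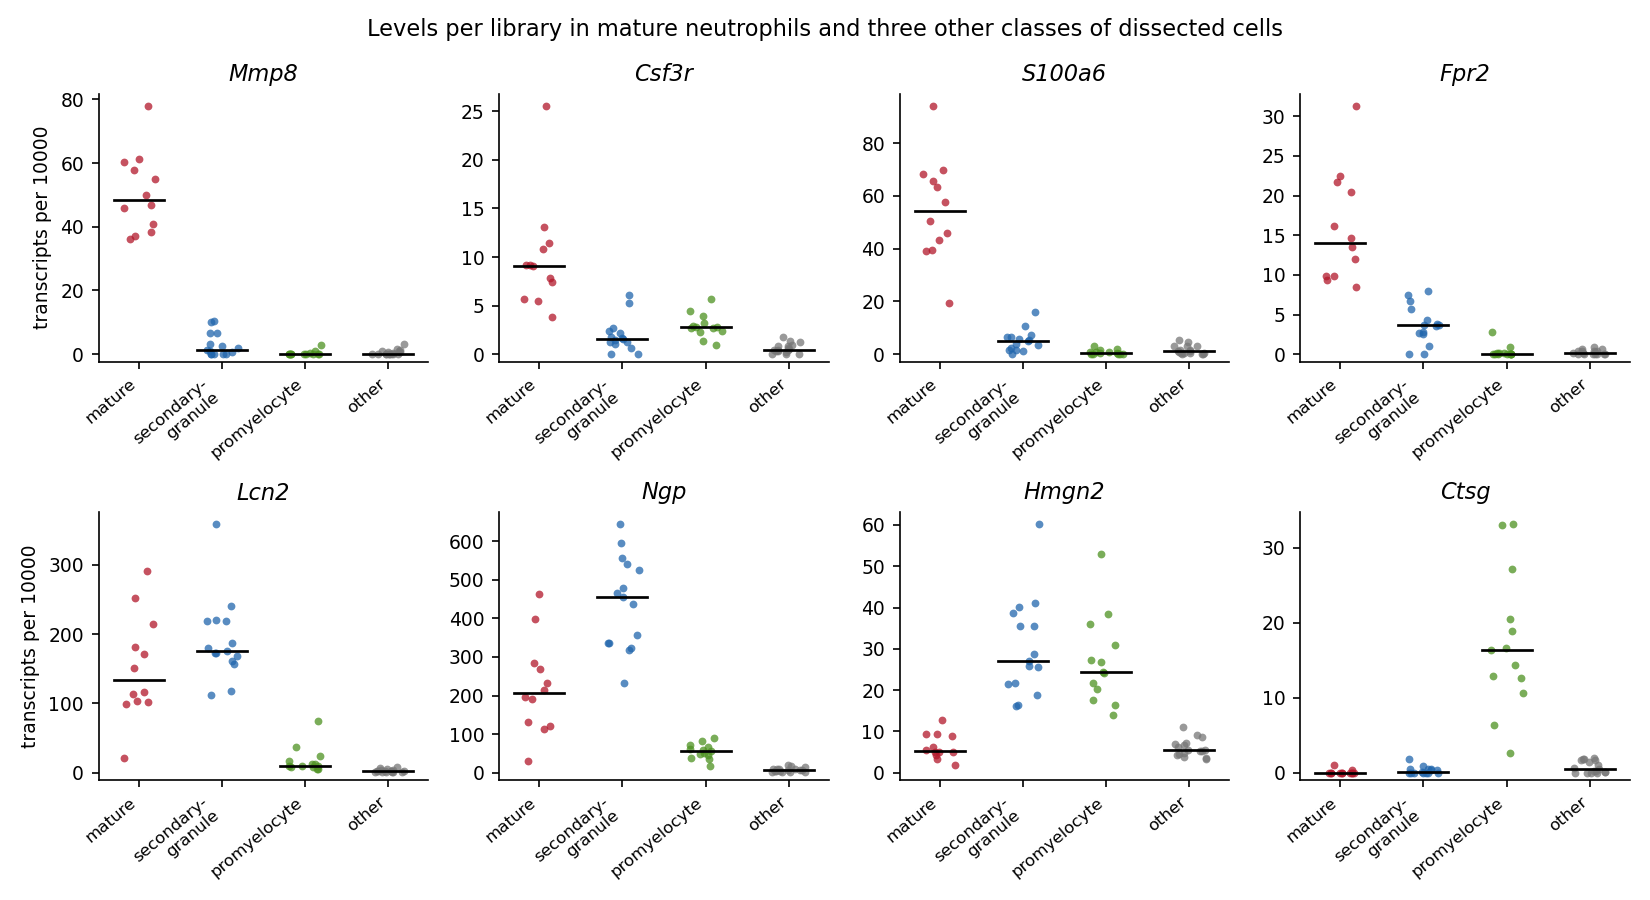
Transcripts per 10000 (vertical axes) of 8 genes in sums per library for mature neutrophils, secondary-granule cells, promyelocytes and other dissected cells (horizontal axes); each point is 1 library and bars are medians. Mmp8, S100a6 and Fpr2 do not overlap between members and the 3 other classes, Ngp chose the secondary-granule class and is shown as a description, and Hmgn2 separates members from secondary-granule cells.

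Many genes known from mature neutrophils were too low for the filter, so cytokine and survival genes had no tested member. Without a filter on low sums 14816 genes were tested, and the median log2 difference of all of them from secondary-granule cells was -0.18. In that fit Ccl6 was 5.83 ± 0.40 higher (adjusted p = 7.02e-44 by edgeR, 83 members and 8 secondary-granule cells with a transcript). Il1rn, the interleukin-1 receptor antagonist, was 4.78 ± 0.69 higher and found in 31 members and 1 secondary-granule cell. Adam8, a membrane protease, was found in 51 and 13 cells (3.06 ± 0.43) and Osm, oncostatin M, in 33 and 10 (2.67 ± 0.50). The immediate early and mRNA decay genes Junb, Fos and Zfp36 were 2.86, 2.26 and 2.90 higher. Mcl1, which keeps neutrophils alive, was 1.47 ± 0.32 higher in 12 of 12 libraries. Cxcr4, the receptor that holds neutrophils in the marrow, was found in 42 members and did not pass the test (-0.06 ± 0.33, adjusted p = 1).

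Against promyelocytes 76% of tested genes were called, 219 (40.7%) higher and 190 (35.3%) lower, so a call says little about any 1 gene. With library totals 143 were higher and 263 lower, the higher share of calls was 35.2% instead of 53.6%, and the median of all genes moved from 0.19 to -0.50. Mmp8 was 0, 0 and 2.83 per 10000 in promyelocytes, and was higher in members by 7.90 ± 0.55 on the log2 scale (adjusted p = 7.91e-15, 11 of 11 libraries). S100a6 was 7.09 and Fpr2 6.76 higher. Csf3r differed less, by 2.32 ± 0.31, with 0.999, 2.76 and 5.69 per 10000 in promyelocytes, and its ranges overlapped.

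All 8 tested gelatinase and late granulocyte genes were higher than in promyelocytes, with a median of 2.84. Of the secondary granule genes 7 of 11 were higher. Lcn2 was 5.13, 10.1 and 74.2 per 10000 in promyelocytes (log2 fold change 4.03 ± 0.36) and Lyz2 0.663, 4.04 and 12.02 (3.83 ± 0.32), whereas Fcnb and Serpinb1a were lower, at -2.72 and -1.16. S100a8 was 80.2, 210 and 349 per 10000 in promyelocytes and did not overlap with members (2.42 ± 0.27, adjusted p = 4.49e-11). All 6 NADPH oxidase genes were higher, and 27 of 29 actin cytoskeleton genes, of which 15 were called with library totals. Actb, the main actin gene, differed by 1.80 ± 0.18.

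Primary granule genes were lower in all 5 tested cases. Promyelocytes were chosen for high Elane, Mpo and Prtn3, and members for low levels of them. Other primary granule genes are thus not independent of the class limits, and their p-values are no separate support. Ctsg, cathepsin G, was 0, 0 and 1.09 per 10000 in members and 2.65, 16.4 and 33.1 in promyelocytes (-5.28 ± 0.52, adjusted p = 9.91e-13). Nkg7, a granule membrane protein, and Ms4a3 had log2 fold changes of -3.93 and -3.55, each without overlap. Ribosomal protein genes were lower in 70 of 72 cases, with a median of -1.32. Rps2 was 1.02, 4.69 and 11.7 per 10000 in members and 11.9, 29.1 and 52.3 in promyelocytes. DNA replication and mitosis genes were lower in 24 of 28, and in 17 without the macrophage-high member.

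Erythroblast genes were also higher than in promyelocytes, in 11 of 11 tested cases, and in 1 of 12 without the erythroblast-high members. Those members were left out for their level of this same list, which holds Beta-s, and promyelocytes were not filtered by it. A fall in these genes thus follows from the choice. The β-globin gene Beta-s was 13.1, 65.9 and 1027 per 10000 in members and 1.99, 14.1 and 399 in promyelocytes. Its log2 fold change was 2.52 ± 0.48, and 1.06 without those members; its call was lost without the filter on low sums, at 1.61. Of the eosinophil genes Ear1 and Ear2 were higher, and neither was called without the S100-low members.

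Against the other dissected cells 79.2% of tested genes were called, 200 (37.2%) higher and 226 (42%) lower. With library totals 169 were higher and 288 lower, which made the higher share of calls 36.98% instead of 46.95%. S100a8 was 3.85, 18.2 and 48.3 per 10000 in these cells (log2 fold change 5.84 ± 0.29, adjusted p = 3.85e-24), and Lcn2 0.662, 2.91 and 8.39 (6.16 ± 0.36). All 7 receptor genes were higher, among them Itgam by 4.32 ± 0.31. Of 15 glycolysis and glycogen genes 14 were higher, among them Pygl, glycogen phosphorylase, by 4.198 ± 0.26. Rac2 and Ncf1, which serve the NADPH oxidase, differed by 3.29 and 3.78. All 11 erythroblast genes and 27 of 28 DNA replication and mitosis genes were lower, with Beta-s at -2.27 and Tuba1b, a tubulin, at -2.46. The levels of Hmgn2 per library overlapped, at 3.23 to 11.2 per 10000 in the other cells and 1.96 to 12.8 in members.

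**Figure D4:**
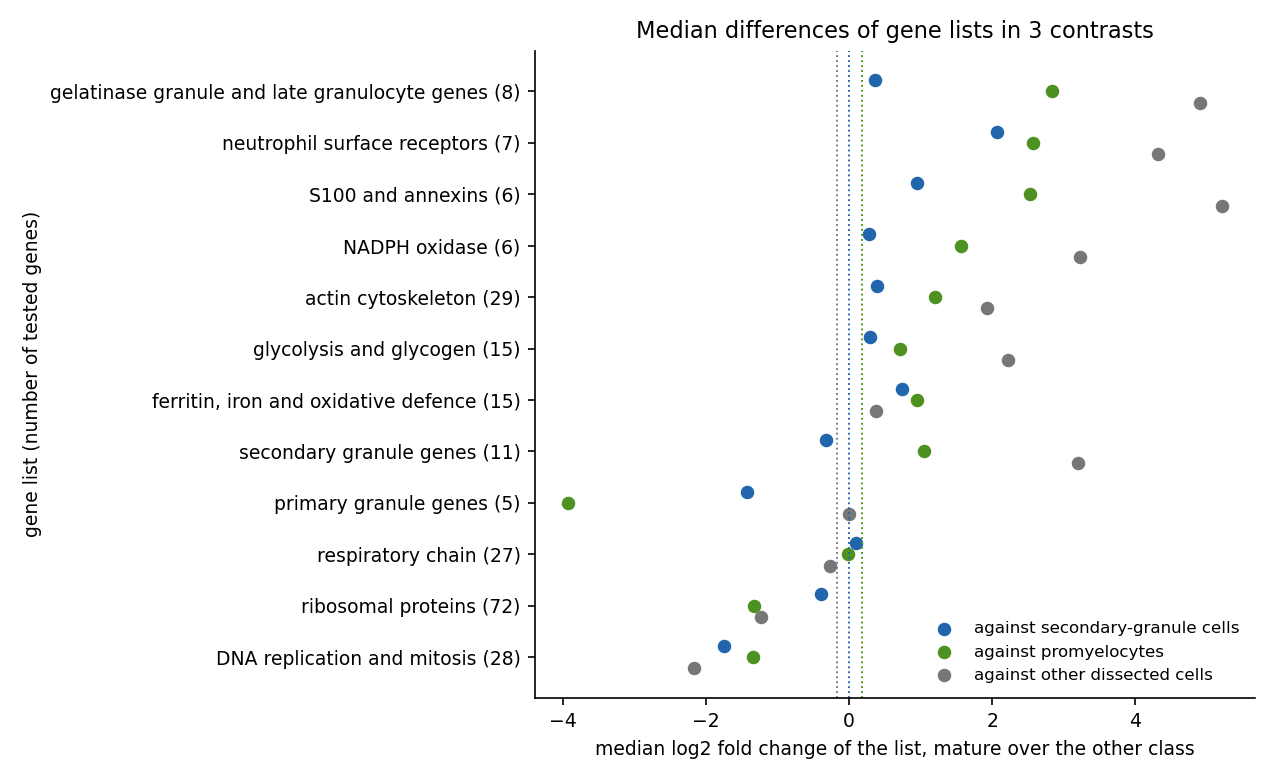
Median log2 fold change of the tested genes of 12 lists (horizontal axis) for members over secondary-granule cells, promyelocytes and other dissected cells; dotted lines are the medians of all 538 tested genes (0.00, 0.19 and -0.16), and list names carry the number of tested genes. DNA replication and mitosis genes lie left of these lines in all 3 comparisons and surface receptors lie right of them.

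Fewer transcripts were recovered per member than per cell of the rest of the neutrophil line. The median number of transcripts per cell in a library was 564, 1173 and 1774 in members and 1029, 3360 and 5240 in promyelocytes and secondary-granule cells together. It was lower in members in 11 of 12 libraries, with a mean log2 difference of -1.46 ± 0.74 (SD, n = 12; exact two-sided sign-flip permutation test over libraries, p = 0.000977, adjusted p = 0.00147). Members were also less diverse at equal depth than the pooled promyelocytes and secondary-granule cells. With each cell thinned to 500 tags, a library's median was 270, 305 and 326 genes per member and 289, 339 and 378 per other neutrophil-line cell. The mean difference was -33.0 ± 20.8 genes, lower in 12 of 12 libraries (exact p = 0.000488, the smallest this design allows; adjusted p = 0.00147). The 3 tests of single values were adjusted together. Members were not tested against secondary-granule cells alone, and the mix of the pooled classes differed between libraries. Over all cells the median was 1245 transcripts in members, 2381 in secondary-granule cells and 4618 in promyelocytes. The smallest difference in genes was -7 in replicate 2, with 40% secondary-granule cells and 17.1% promyelocytes. The largest was -78 in replicate 17, with 4.65% and 17.4%.

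On average the share of members was higher among the partners of members than among the partners of all other cells. Of 532 clumps with a kept cell, 99 held a member, 23 held more than 1 and the most was 3. A clump partner with at least 500 transcripts was known for 101 members, and pairs within clumps were 31 of 2 members, 27 of a member with a secondary-granule cell, 4 with a promyelocyte and 44 with one of the other cells. Members made up 0, 36.7 and 66.7% of the partners of members in a library, and 1.82, 8.33 and 24% of the partners of all other cells. The highest share was 2 of 3 partners in replicates 3 and 4, and 24 of 36 in replicate 9. Replicate 2 had 3 partners of members and replicate 13 had 2, and each library counted alike in the mean. The mean difference was 26.7 ± 27.96 percentage points (SD, n = 12), higher in 9 of 12 libraries (exact two-sided sign-flip permutation test, p = 0.00977, adjusted p = 0.00977). In the 3 libraries that went the opposite way no partner of a member was a member. The difference missed the threshold in clumps of exactly 2 such cells, at 20.2 points (p = 0.0630, exact permutation test), and without the erythroblast-high members, at 15.9 points (p = 0.0732, exact permutation test). Over all alternatives the exact p ran from 0.00171 to 0.0732.

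Retnlg and Mmp9 were also counted in the neighbours that were no members themselves. Secondary-granule cells beside a member had 7.72 per 10000 of both genes together over 24 cells, and those in clumps without a member 4.35 over 137. Promyelocytes had 9.18 over 4 cells and 0.616 over 78, and the other cells 1.25 over 41 and 1.31 over 422. The highest single cell beside a member had 47.4 per 10000, just under the limit of 50. The part of transcripts from a neighbour in the pairing was not tested.

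**Figure D5:**
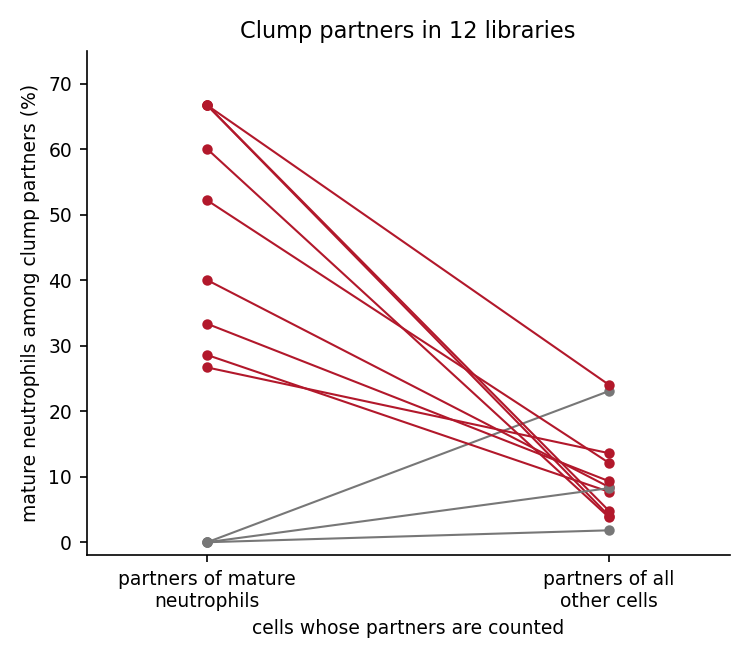
Share of mature neutrophils among clump partners (vertical axis, percent) of members and of all other cells (horizontal axis) in 12 libraries, with a line for each library; red lines fall from left to right. The share was higher beside members in 9 libraries and was 0 beside members in the 3 grey ones.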

How the data were processed

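Per gene and cell, the authors' table of the whole series gives estimated transcript counts (expected counts), for 23536 genes and 1915 cells. The submitters' processing notes name BWA 0.6.2-r126 as the aligner and mm10 as the genome build; annotation and read filters are not given in the labels or headers. The authors' files per dissected library hold estimated transcripts under other column names and served as an alternative. Columns were assigned to libraries by name; 1 dissected and 1 sorted library were not in the table. Replicate numbers follow the order of records and pair nothing; the library is the block, since all classes come from the same libraries. All p-values take libraries as the units, not animals. In the edgeR fit the spread is what is left after differences between libraries are taken out, with counting error. It is estimated over all classes and moderated across genes.

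Members, classes, gene lists and tests were chosen with earlier results of these data known. Levels are transcripts per 10000 of a cell or sum. Wells were filled by hand, so doublets were not called. Sums were rounded and tested with edgeR 4.0.16 (TMM, filterByExpr, robust quasi-likelihood) in R 4.3.3; the approximate standard error divides the size of the log2 fold change by the root of F. DESeq2 1.42.0 was an alternative. The procedure was tested on simulated data. Thinning drew 500 whole tags per cell with a fixed seed, after estimated transcripts were turned back into tags. Single values were tested by exact permutation in Python 3.11.15, and scipy 1.17.1 gave exact binomial intervals at 95%. For a count of 0 the limit is 3 counts. Named genes were the class-rule and marker genes, up to 6 of each list by level and all called list members, and the 10 highest and 10 lowest log2 fold changes per contrast with 80% of libraries in 1 direction, without predicted genes; genes named from the fit without a filter were chosen after their values were seen. Near-identical genes (globins, Ear, class I) may have shared reads, as the counting rule is not stated. Alternatives changed the scaling, the filter, the minimum number of cells and transcripts, the class limits, the source file and the libraries; leaving out S100-low, macrophage-high or erythroblast-high members was chosen after seeing the data. Some genes that the rule names are not reported here.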

Additional observations from a re-analysis of the deposited data

Results flagged for a closer look

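Dissected replicate 18 is not in the table of the whole series and entered no comparison. In its own file of estimated transcripts, 11 of 90 wells with at least 500 transcripts met the rule for mature neutrophils, or 12.2%, with a median of 1204 transcripts. No sorted HSC in the table met it. The file was drawn up by library and its totals differ from those of the table, so the share is given as a value only. The rule counts wells, and no clump can be read from this file.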

How the results depend on the processing

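Members numbered 85 to 152 over all settings. Of 538 tested genes, 104 were higher and 110 lower than in secondary-granule cells, 219 and 190 than in promyelocytes, and 200 and 226 than in other cells. Without a filter on low sums these were 266 and 650, 641 and 1662, and 678 and 2810. Against secondary-granule cells, counts moved to 55 higher with at least 1 cell per sum, 170 lower with at least 5, 66 higher with Retnlg and Mmp9 at 25 per 10000, 56 higher and 181 lower with Ltf, Camp and Ngp at 100, and 48 higher and 216 lower without erythroblast-high members. With library totals 143 were higher than in promyelocytes, and with at least 5 cells per sum 343 were lower than in other cells. Leaving out 1 library gave 49 to 106 higher and 91 to 186 lower genes against secondary-granule cells, 179 to 233 and 164 to 212 against promyelocytes, and 167 to 202 and 213 to 292 against other cells; against secondary-granule cells a count moved by over 1.5 times without replicate 2, 3, 9, 10, 11, 12, 14, 15 or 17, with the fewest higher genes without 17 and the most lower genes without 2. The median of all genes moved with these settings, to as low as -0.34 without 1 library (replicate 10) and to -0.47 without erythroblast-high members against secondary-granule cells. Over every setting 25 genes stayed higher and 69 lower than in secondary-granule cells, 74 and 148 than in promyelocytes, and 109 and 183 than in other cells, and no gene was called the opposite way.

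Of 56 gene calls named with their values, Itgam, Rac2, Mgst1 and Cybb against secondary-granule cells and Beta-s against promyelocytes lost the call in at least 1 setting, and Rac2 changed sign, to -0.10 without the filter. Without the library as a replicate block 96 were higher and 95 lower than in secondary-granule cells, and Cybb, at -0.45, and Itgam, at 0.76, lost their calls; no other named call changed. The excess of members among clump partners, 26.7 points, was 20.2 in clumps of exactly 2 cells, 15.9 without erythroblast-high members and 23.4 to 31.2 without 1 library. The files per library name no clumps, so they gave no such value. Sums of members held 2355 to 49956 transcripts, and cytokine and survival genes were reached only without the filter. The cause of these moves was not tested.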
